A study of Mus musculus with 88 samples.

Results

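The comparison described here was between D2 mice that were susceptible to chronic social defeat stress (CSDS) and D2 controls, in the medial prefrontal cortex (mPFC). It was defined by the sample labels alone, which gave 14 of the 88 libraries of the series. The 8 susceptible mice were DBA/2Crl males that had been defeated and afterwards avoided an unfamiliar mouse, and the 6 controls were DBA/2Crl males that had not been defeated. All were 8 weeks old at dissection, carried no engineered allele, and gave 1 library each. No resilient D2 mice were measured in the mPFC, so defeat and susceptibility cannot be told apart in this strain. For comparison, the same contrast was taken in C57BL/6Crl (B6) males of the same age, with 6 susceptible mice and 6 controls. The 6 resilient B6 males of the mPFC, defeated but without social avoidance, also entered the fit but were not compared. RNA was depleted of ribosomal RNA, and values were log2 CPM (read counts scaled to the size of the library) for 18946 genes.

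CSDS is repeated exposure of a mouse to a larger aggressive mouse, and some defeated animals later avoid social contact while others do not. The mPFC, the front midline part of the cortex, holds glutamatergic pyramidal neurons, GABAergic interneurons, glia and vessels, and takes part in the control of emotional and social behavior. It is rich in receptors for glucocorticoids, the adrenal hormones of the stress response. Neuronal activity also acts there on oligodendrocytes, the glia that wrap axons in myelin.

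In D2 mice, no gene of the mPFC differed between susceptible and control mice after adjustment for all genes. The protein-coding genes that led the ranking by p and fold change were Alas2 and Hba-a1, both of red blood cells and both about 1.5-fold higher in susceptible mice, and on the lower side Lrrc74b, a leucine-rich repeat gene of little known function. The lists for myelin, stress hormones, neurons, glia and immunity all had medians within 0.1 of zero on the log2 scale. The intervals were narrow enough to keep 89.5% of the genes within 1.5-fold of no change in either direction.

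The libraries were cortical. Over the 14 D2 libraries Slc17a7, the vesicular glutamate transporter of cortical pyramidal neurons, lay between 7.46 and 8.02 log2 CPM, and Tbr1, a transcription factor of cortical pyramidal neurons, lay between 5.87 and 6.62. They also held RNA of neighbouring tissue in unequal amounts. The 8 olfactory bulb genes summed to between 8.91 and 143 CPM in controls and between 11.2 and 151 CPM in susceptible mice, a 16.9-fold range. Control replicates 3, 5 and 6 and susceptible replicates 3 and 6 were at the low end, so both groups held low and high libraries. The first principal component of the 14 libraries carried 32.1% of their variance, and its 100 leading genes included all 8 of these genes. The 18 striatal neuron genes summed to between 403 and 552 CPM except in control replicate 6 (810 CPM) and susceptible replicate 7 (1036 CPM). The 12 meningeal fibroblast genes were highest in control replicate 4, at 271 CPM against 119 to 207 CPM in the other controls and 144 to 191 CPM in susceptible mice. The values had been normalised and adjusted for library preparation sets and hold no counts, so no counting error was computed from them. In bulk tissue fewer cells of a type and less RNA per cell cannot be told apart.

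**Figure D1:**
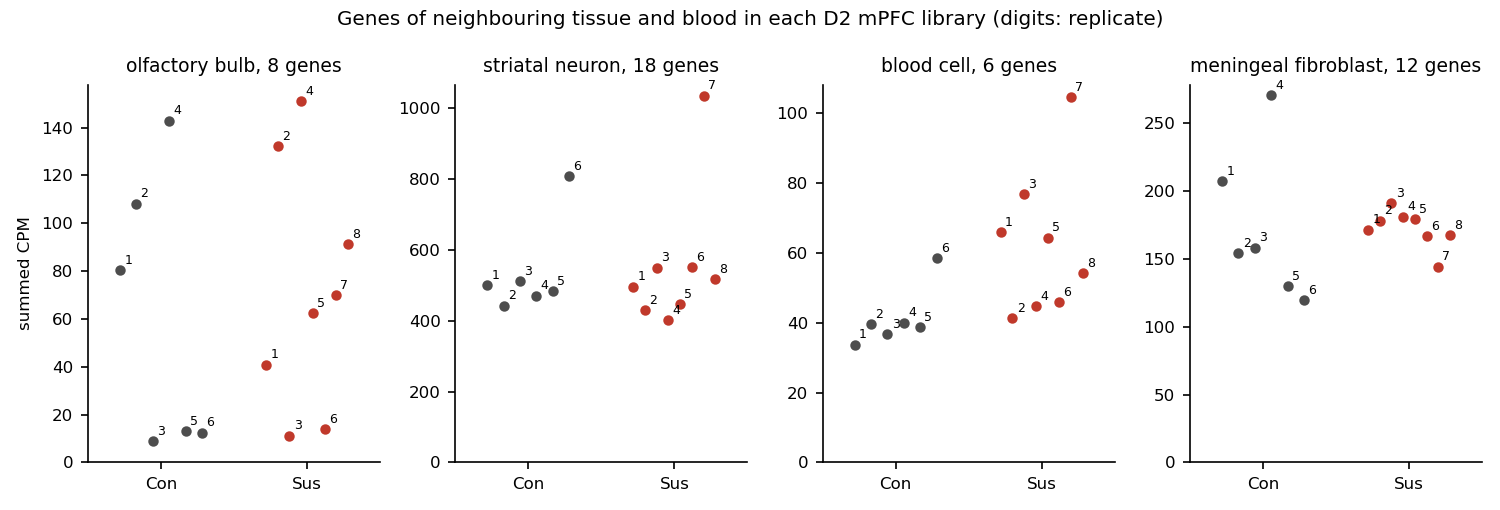
Summed CPM of 4 marker lists in each of the 14 D2 mPFC libraries, controls (Con, n = 6) in grey and susceptible mice (Sus, n = 8) in red, with the replicate beside each point. The olfactory bulb sum ranged 16.9-fold and overlapped between the groups, control 6 and susceptible 7 were highest for striatal genes, and the 4 highest blood sums were in susceptible mice.

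The first question was which genes differed between susceptible and control D2 mice. With limma, 0 of 18946 genes had an adjusted p under 0.05 (0%), and the smallest adjusted p was 0.985. At an unadjusted p under 0.05 there were 734 genes (3.87%), of which 431 (2.27%) were higher and 303 (1.6%) were lower in susceptible mice. That split depended on scaling: with every library centred on its median, 276 genes were higher and 478 were lower. Among the B6 mice of the same fit 420 genes (2.22%) had an adjusted p under 0.05, but 0 did once the prefix of the mouse IDs was added to the model. Without its sign, the log2 fold change had a median of 0.0552 in D2 and 0.0884 in B6. Each gene had a single spread shared by all mPFC groups, so its error could differ between the strains only through group size. The medians of these errors, 0.0805 in D2 and 0.086 in B6, therefore do not compare the spread within each strain. The number of genes under an unadjusted p of 0.05 rested most on control replicate 4: without it there were 1444, still with 0 at an adjusted p under 0.05. Without control replicate 6 and susceptible replicate 7 there were 611 genes, and with the level of the olfactory bulb genes as a covariate there were 872, again with 0 after adjustment. In D2 controls the ID prefix was D10 in 5 mice and D5 in 1. In susceptible D2 mice it was D10 in 5, and D4, D5 and D8 in 1 each, so D4 and D8 occurred only there. With the prefix as a covariate there were 843 genes, and with D2 mice of prefix D10 alone 526, each with 0 after adjustment.

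**Figure D2:**
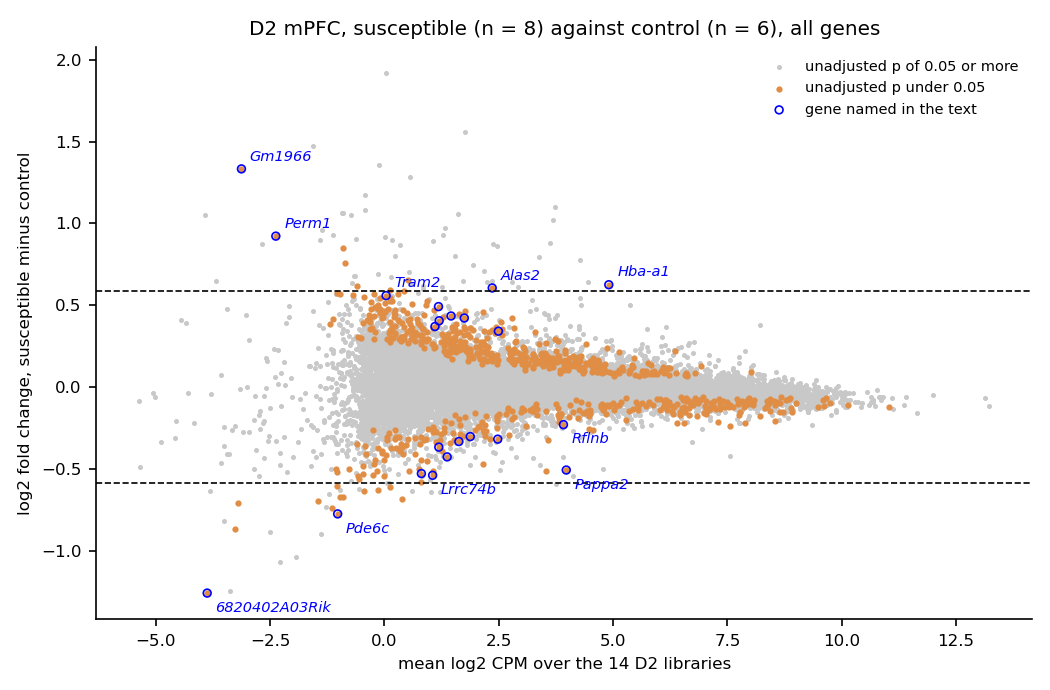
Log2 fold change (susceptible minus control) of each of 18946 genes against its mean log2 CPM over the 14 D2 libraries. Orange points are the 734 genes with an unadjusted p under 0.05, blue circles are genes named in the text, and dashed lines mark 1.5-fold; points beyond the lines are mostly genes of low level.

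The genes named here were the 8 highest and 8 lowest by −log10(p) times the log2 fold change among protein-coding genes with a mean of at least 1 log2 CPM. None passed the adjusted test, and each adjusted p was 0.985. They are described as the leading genes of the ranking and not as genes that differed.

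A pair of red cell genes led the ranking. Alas2 (chrX:150547375-150570638, GRCm38) encodes the first enzyme of heme synthesis in red cell precursors. Its log2 CPM in the 6 controls was 2.00, 1.96, 2.00, 1.97, 1.85 and 2.29, and in the 8 susceptible mice 2.79, 1.78, 3.05, 2.52, 2.6, 2.44, 3.3 and 2.48. The lowest value of all was in a susceptible mouse, while the other 7 lay above every control. The difference was 0.61 ± 0.15 (SE) on the log2 scale, 1.52-fold (95% interval 1.22 to 1.90), with an unadjusted p of 0.000511. Hba-a1, an alpha-globin gene, had 4.09 to 5.21 log2 CPM in controls (median 4.50) and 4.67 to 5.94 in susceptible mice (median 5.23), and the groups overlapped. It was 1.54-fold higher (1.17 to 2.03). Its near-identical copy Hba-a2 went the other way, with a log2 fold change of -0.89 ± 0.50 at a level under 1 CPM, so the division of reads between the copies is uncertain. Of the 6 measured blood cell genes 2 were higher at an unadjusted p under 0.05 and 0 lower, against 2.27% and 1.6% of all genes, with a median log2 fold change of 0.44 against 0.00 over all genes. The 2 were Alas2 and Hba-a1 themselves, so this count repeats the ranking and is no separate support. The beta-globin gene Hbb-bs had a log2 fold change of 0.44 ± 0.24. The summed level of the list was 33.7 to 58.5 CPM in controls and 41.4 to 105 CPM in susceptible mice. How far the amount of blood left in the tissue differed between the groups was not tested.

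Of the other genes on the higher side, 4 encode secreted or matrix proteins. Angpt2 (angiopoietin-2, a ligand that loosens vessel walls) was at 0.71 to 1.8 log2 CPM in controls (median 1.16) and 1.35 to 1.96 in susceptible mice (median 1.67). Tgfbi, an extracellular matrix protein induced by TGF-beta, was at 1.1 to 2.21 in controls (median 1.44) and 1.52 to 2.29 in susceptible mice (median 1.93). For both genes the highest control was replicate 4, and the groups overlapped. Prelp, a matrix proteoglycan, was at 0.82 to 1.16 in controls and 0.92 to 1.79 in susceptible mice. Fbln1 (fibulin-1, also of the matrix) was at 2.1 to 2.79 in controls and 2.36 to 2.96 in susceptible mice. The fold changes of these 4 genes lay between 1.27 and 1.35, and 7 or 8 of the 8 susceptible mice were above the control mean. Of the 12 meningeal fibroblast genes 1 was higher at an unadjusted p under 0.05 and 0 lower, with a median log2 fold change of 0.18. That gene was Fmod, a collagen-binding proteoglycan, at 0.34 ± 0.14, and Col1a1, a fibrillar collagen chain, was at -0.55 ± 0.36. Knstrn, a protein of the mitotic spindle, had a log2 fold change of 0.49 ± 0.16, and Dok3, an adaptor of immune cell signaling, had 0.37 ± 0.12.

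The lower side held genes of several kinds. Rflnb (refilin B, an actin-organizing protein, chr11:76019194-76027782) had the smallest error of the 16 genes. Its control values were 4.02 to 4.18 log2 CPM in replicates 1 to 5 and 3.76 in replicate 6, and its susceptible values were 3.86, 3.78, 3.79, 3.90, 3.92, 3.74, 3.73 and 3.82. All controls but replicate 6 lay above every susceptible mouse, and the log2 fold change was -0.23 ± 0.06. Lrrc74b (chr16:17544465-17561247), a little-studied leucine-rich repeat gene, was at 1.05 to 1.86 in controls and 0.55 to 1.03 in susceptible mice. Its groups did not overlap, which held for 1 gene (0.00528%) on the lower side and 8 genes (0.0422%) on the higher side. Its log2 fold change was -0.54 ± 0.15, with an unadjusted p of 0.00148.

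Hsd11b1, the enzyme that regenerates active glucocorticoid from its inactive form within cells, was at 2.44 to 2.96 log2 CPM in controls (median 2.64) and 1.97 to 2.61 in susceptible mice (median 2.40). All 8 susceptible mice lay below the control mean, the groups overlapped, and the log2 fold change was -0.32 ± 0.11. In B6 mice the same gene had -0.37 ± 0.12, with an adjusted p of 0.0829. Lat2 and Grap, adaptor proteins of immune cell signaling, had log2 fold changes of -0.33 ± 0.10 and -0.37 ± 0.12. For Lat2 the B6 estimate was 0.31 ± 0.11. The difference between the strains had an unadjusted p of 0.000215 with limma but an adjusted p of 0.291, so it was not established. The B6 values of Hsd11b1 and Lat2 come from groups that also differed in the prefix of the mouse ID. Pappa2, a protease that frees insulin-like growth factors from their binding proteins, was at 3.86 to 4.74 in controls and 3.07 to 4.21 in susceptible mice. Pttg1 (securin) and Kif18a (a kinesin), both of chromosome segregation, had -0.43 ± 0.14 and -0.30 ± 0.10.

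**Figure D3:**
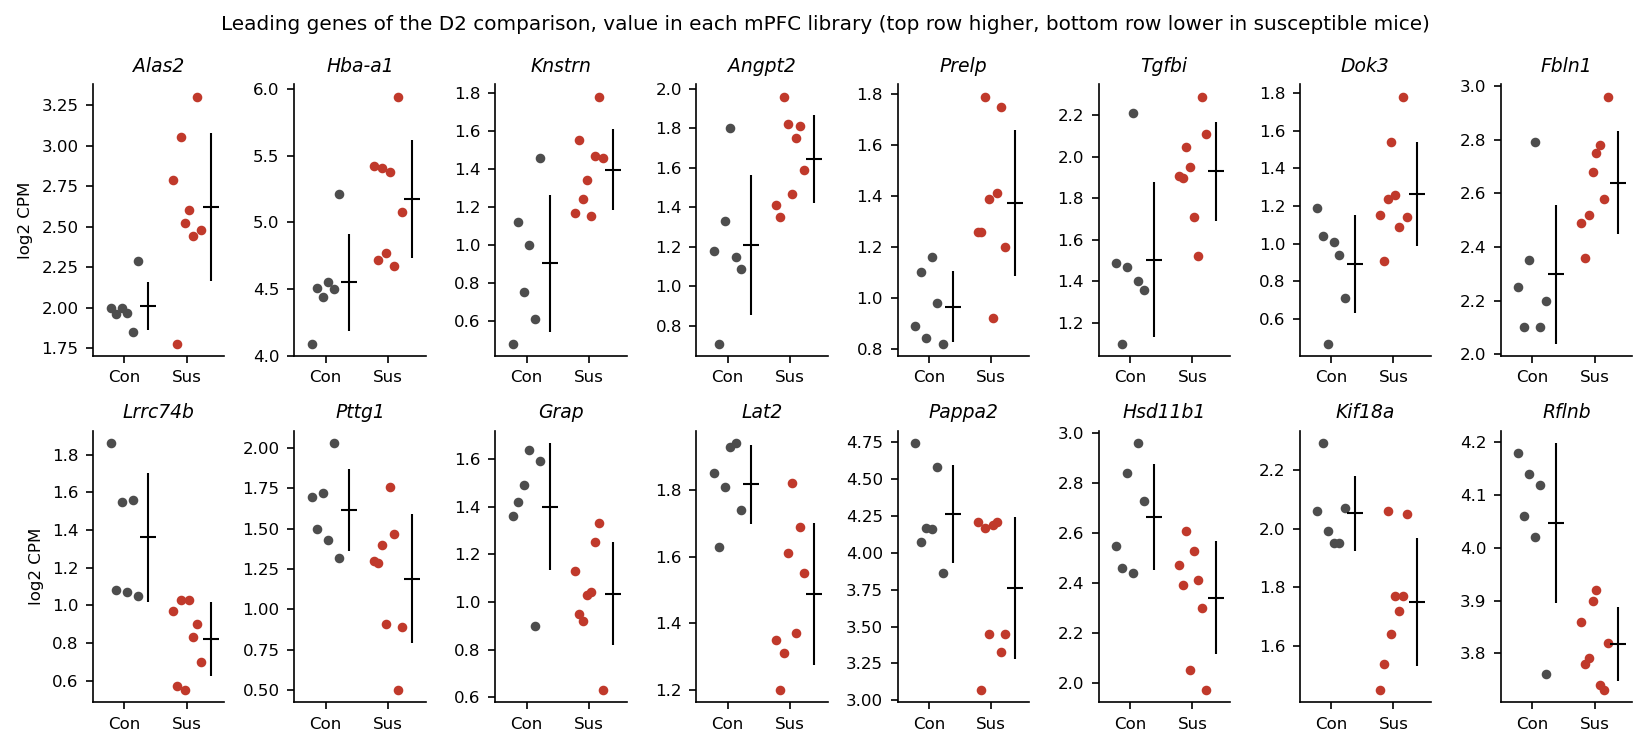
Log2 CPM of the 16 leading protein-coding genes in each D2 mPFC library, controls (Con, n = 6) in grey and susceptible mice (Sus, n = 8) in red, with the mean and SD beside the points and an axis of its own for each gene. The groups overlapped for each gene except Lrrc74b, and the single high control of Tgfbi, Angpt2 and Fbln1 was replicate 4 each time.

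Without a limit on level or type, the ranking was led by genes with a mean below 1 log2 CPM. Tram2 (chr1:20996299-21079229), which takes part in collagen synthesis at the endoplasmic reticulum, was at -0.67 to -0.06 log2 CPM in controls and -0.05 to 0.62 in susceptible mice. The groups touched without overlapping, and the difference was 1.47-fold (1.23 to 1.77) with an unadjusted p of 0.000169. Ppp1r3e, a glycogen-targeting subunit of protein phosphatase 1, was at 0.61 to 1.54 in controls and had a median of 0.44 in susceptible mice, of which 7 lay below the control mean, with a log2 fold change of -0.53 ± 0.14. The pseudogene Gm1966 (1.33 ± 0.39), the muscle regulator Perm1 (0.92 ± 0.30), the unclassified transcript 6820402A03Rik (-1.26 ± 0.41) and the cone phosphodiesterase Pde6c (-0.77 ± 0.24) had the largest log2 fold changes of this set. All 4 lay under 1 CPM and had an adjusted p of 0.985. Their values depended on how low levels were treated: on log2(CPM + 1) they were 0.14, 0.17, -0.09 and -0.26, in the same order. On that scale Tram2 had 0.28 and Ppp1r3e had -0.34, and with D2 mice of ID prefix D10 alone Tram2 had 0.34, against 0.56 with all mice. Of the 22 genes named by rank 10 overlap another annotated gene, including Alas2 and Hsd11b1, and whether reads were counted by strand is not given in the sources used here.

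The next question was whether genes of known function moved together. The 43 lists held 890 different genes. None had an adjusted p under 0.05, and 18 (2.02%) were higher and 18 (2.02%) lower at an unadjusted p under 0.05. These shares were close to those of all genes, 2.27% higher and 1.6% lower, against which the counts of single lists are to be read. In 23 lists there was no such gene. The median log2 fold change was within 0.1 of zero in 39 lists. The other 4 were the olfactory bulb, blood cell, meningeal fibroblast and ependymal lists, which mark blood or neighbouring tissue.

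**Figure D4:**
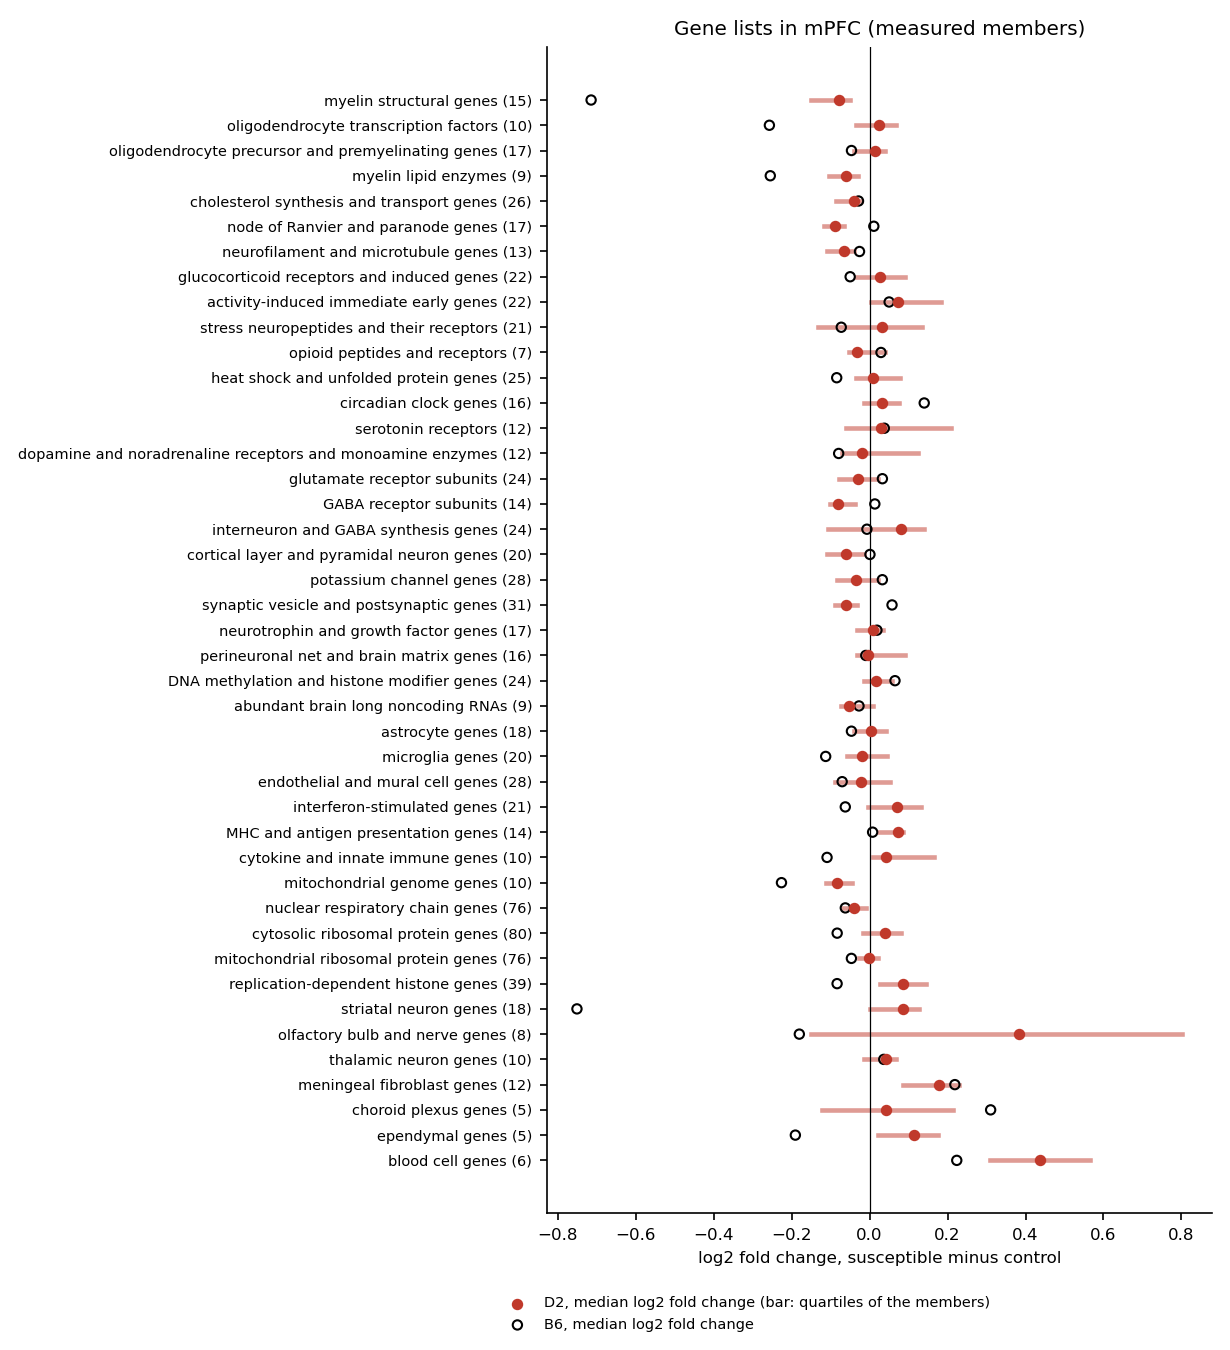
Median log2 fold change (susceptible minus control) of 43 gene lists in the mPFC, with D2 as red points (bars span the quartiles of the members) and B6 as open circles, and the number of measured genes in parentheses. The D2 medians lie within 0.1 of zero except for 4 lists of blood or neighbouring tissue, while the B6 medians of the myelin structural and striatal lists lie at -0.71 and -0.75. The B6 values are from the fit without the ID prefix, and with the prefix as a covariate these B6 medians were -0.11 and -0.12.

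The estimates for myelin genes were close to zero in D2 mice, but their errors were larger than usual. The median standard error was 0.18 for the genes of myelin proteins, against 0.08 over all genes. The spread behind these errors is shared over all mPFC groups, B6 included, so it is not that of D2 mice alone. Of the 15 genes for myelin proteins 0 passed either test, all 15 had negative log2 fold changes, and these ran from -0.20 to -0.02 with a median of -0.08. Mobp, a structural protein of central myelin, was at 7.55 to 8.26 log2 CPM in controls (median 7.7) and 7.38 to 8.40 in susceptible mice (median 7.73). Its difference was -0.05 ± 0.20, and the groups overlapped through most of their range. Mog, on the outer surface of myelin, had -0.02 ± 0.18. The oligodendrocyte transcription factors (10 genes, median 0.02), the precursor and premyelinating genes (17 genes, median 0.01) and the enzymes of myelin lipids (9 genes, median -0.06) held 0 genes at an unadjusted p under 0.05. Sox10, which directs the oligodendrocyte program, had 0.00 ± 0.11, and Pdgfra, the growth factor receptor of precursors, had -0.05 ± 0.04.

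Genes that supply myelin and axons had slightly negative medians. Abundant genes in general did too: over the 3927 genes at 64 CPM and over the median log2 fold change was -0.03. Of 26 genes of cholesterol synthesis and transport 5 were lower and 0 higher at an unadjusted p under 0.05, against 1.6% and 2.27% of all genes, with a median of -0.04. Among them were Hmgcs1, Nsdhl and Acat2, enzymes of the pathway and of acetyl-CoA metabolism, and Insig1, which retains the activators of the pathway in the endoplasmic reticulum. Hmgcs1 had the most negative value, at 8.17 to 8.40 log2 CPM in controls (median 8.33) and 7.88 to 8.21 in susceptible mice (median 8.16). All 8 susceptible mice were below the control mean, but the difference was only 0.885-fold (0.797 to 0.982). With each of the alternatives run, 1 to 5 genes of the list were lower. The node of Ranvier list (17 genes, median -0.09) had 1 lower gene, Gldn (gliomedin, which clusters sodium channels, -0.34 ± 0.14). The neurofilament and microtubule list (13 genes, median -0.07) also had 1, Map1b (-0.12 ± 0.06).

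Glucocorticoid-related genes were near zero as a list, with 2 of 22 higher, 1 lower and a median of 0.03. Fkbp5, a chaperone induced by the glucocorticoid receptor, was at 3.21 to 3.69 log2 CPM in controls and 3.29 to 3.80 in susceptible mice, a difference of -0.04 ± 0.10. Plin4, a lipid droplet protein, was at -0.13 to 0.60 in controls and 0.34 to 1.2 in susceptible mice, 1.42-fold higher (1.1 to 1.83). Sult1a1, a sulfotransferase, had 0.20 ± 0.08, and the lower gene was Hsd11b1. The immediate early genes, which report recent neuronal activity, had 0 of 22 at an unadjusted p under 0.05 and a median of 0.07. Dissection came days after the last defeat, so neither list describes the acute response to it. Fos spanned 3.83 to 5.51 log2 CPM in controls and 3.81 to 5.53 in susceptible mice, so a spread of more than 3-fold within each group covered the difference of 0.19 ± 0.24. The stress neuropeptides (21 genes, median 0.03), opioid genes (7, median -0.03), heat shock genes (25, median 0.01) and clock genes (16, median 0.03) likewise held 0 such genes. Crh, the peptide that starts the hormonal stress response, had -0.01 ± 0.13, and Nts (neurotensin) had 0.58 ± 0.40.

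Among neuronal genes, the GABA receptor subunits had the most negative median, -0.08, with 3 of 14 lower and 0 higher, against 1.6% and 2.27% of all genes. Over all genes at 64 CPM and over the median was -0.03. Over the alternatives run, 0 to 4 of the 14 were lower. Among them was Gabrb2, a beta subunit of the GABA-A receptor, at 8.28 to 8.50 log2 CPM in controls (median 8.42) and 7.97 to 8.47 in susceptible mice (median 8.26). Its groups overlapped, and its log2 fold change was -0.13 ± 0.06, with an unadjusted p of 0.0439. Of 24 glutamate receptor subunits 1 was lower, the metabotropic receptor Grm3 (-0.21 ± 0.09), and the median was -0.03. Of 12 dopamine, noradrenaline and monoamine enzyme genes 2 were higher, among them Adra2a, an alpha-2 adrenergic receptor, with a median of 2.41 log2 CPM in controls and 2.81 in susceptible mice (0.35 ± 0.15). Gfra2, a co-receptor of neurturin, was the 1 lower gene of 17 neurotrophin and growth factor genes (-0.22 ± 0.11), and Bdnf had -0.10 ± 0.15. The serotonin receptors (12 genes, median 0.03), interneuron genes (24, 0.08), layer and pyramidal genes (20, -0.06), potassium channels (28, -0.03), synaptic genes (31, -0.06) and perineuronal net genes (16, 0.00) had 0 genes at an unadjusted p under 0.05. Sst, the peptide of a main interneuron class, had -0.18 ± 0.14, and Dlx2, a transcription factor of GABAergic neurons, had 0.44 ± 0.37.

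Glial and immune lists were also near zero. Of 18 astrocyte genes 0 passed either test, and Gfap was at 5.82 to 6.81 log2 CPM in controls and 6.00 to 6.81 in susceptible mice (0.09 ± 0.18). Of 20 microglia genes 1 was higher, Olfml3 (0.11 ± 0.05), and of 28 endothelial and mural genes 1 was lower, the transporter Slco1a4 (-0.11 ± 0.05). Of 14 MHC and antigen presentation genes 1 was higher, Tapbp (tapasin, which loads peptides onto class I molecules), with 3.84 to 4.06 in controls and 3.97 to 4.25 in susceptible mice. Its log2 fold change was 0.18 ± 0.05, with an unadjusted p of 0.000964, the smallest in any list after Alas2. Of 10 measured cytokine and innate immune genes 2 were higher, Il1a (0.47 ± 0.17, at about 1 CPM) and the receptor Il1r1 (0.21 ± 0.10). Of 21 interferon-stimulated genes 1 was higher and 0 lower, with a median of 0.07, and Ifit1, an antiviral RNA-binding protein, had 0.18 ± 0.13.

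Genes of energy use and translation were also close to their control level. Of 76 nuclear genes of the respiratory chain 2 were lower and 0 higher, and the median was -0.04. Ndufc2 of complex I was at 4.79 to 4.96 log2 CPM in controls and 4.64 to 4.85 in susceptible mice, 0.907-fold (0.852 to 0.964), with all 8 susceptible mice below the control mean. In B6 mice Ndufc2 had -0.20 ± 0.05, with an adjusted p of 0.0266 from limma. The B6 groups also differed in the prefix of the mouse ID, and 0 genes were called in B6 with that prefix in the model. Of 80 cytosolic ribosomal protein genes 3 were higher and 2 lower (median 0.04), the highest being Rps12 (0.37 ± 0.13). Such genes have many pseudogene copies that can take up their reads. The 10 measured mitochondrial genome genes had a median of -0.08 and 0 at an unadjusted p under 0.05, and mt-Nd3 (-1.24 ± 0.70) was under 1 CPM. Of 76 mitochondrial ribosomal protein genes 1 was higher, Mrps10 (0.10 ± 0.04). Of 39 histone genes 1 was higher, Hist1h2bl (0.53 ± 0.21), with a median of 0.09, and of 24 genes for DNA methylation and histone modification 1 was higher, Hdac1 (0.18 ± 0.08). The 9 long noncoding RNAs had a median of -0.05 and 0 such genes. The striatal, thalamic, choroid plexus and ependymal lists had medians of 0.08, 0.04, 0.04 and 0.11 and 0 such genes, and the olfactory bulb list had 0.38 with a median standard error of 0.90.

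The last question was how large a difference the data still allow. The 95% interval lay between 20% lower and 25% higher for 12803 genes (67.6%), within 1.5-fold in either direction for 16957 (89.5%) and within 2-fold for 18477 (97.5%). Tested against each bound with a pair of one-sided tests and adjusted over all genes, 70.4%, 92.1% and 98.2% of the genes were within it at an adjusted p under 0.05. For these genes a difference of that size was excluded at this error rate, and for the others it was not.

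Precision depended on level. Genes at 64 CPM and over (3927) had a median half-width of the interval of 1.07-fold, and for 99.4% a 1.5-fold difference lay outside the interval. For genes of 4 to 16 CPM (4547) the share was 95%. For genes under 1 CPM (1189) the half-width was 1.37-fold and 37.5% were within 1.5-fold, so for most of them a difference of that size was not excluded. Of the 469 genes whose interval reached beyond 2-fold, 187 were under 1 CPM. No gene had an interval lying wholly beyond 1.5-fold, and 2 had one lying wholly beyond 25% higher or 20% lower, Gm1966 and 6820402A03Rik, both under 1 CPM. On log2(CPM + 1) the unadjusted p of these 2 genes from limma was 0.236 and 0.45.

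Among the lists, 16 had every measured member within 1.5-fold. They included all 26 cholesterol genes, 24 glutamate and 14 GABA receptor subunits, 28 potassium channels, 31 synaptic genes, 18 astrocyte and 20 microglia genes, 16 clock genes and 76 nuclear respiratory chain genes. For myelin proteins 14 of 15 were within 1.5-fold, and the exception, Opalin, reached to -0.60 on the log2 scale. Only 2 of the 15 were between 20% lower and 25% higher, against 67.6% of all genes. The immediate early genes were bounded less well, with 15 of 22 within 1.5-fold, as were the serotonin receptors with 7 of 12. For blood cell and olfactory bulb genes 0 of 6 and 0 of 8 were within it.

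The same stress in B6 mice gave values to set beside these, but the B6 groups differed in the prefix of the mouse ID, whose meaning the labels do not give. Of the 6 B6 susceptible mice 5 had the prefix C7 and 1 had C5, while of the 6 controls 2 had C1, 3 had C2 and 1 had C7. The D2 prefixes were also unequal, but D10 held 5 mice of each D2 group. The myelin protein genes had log2 fold changes of -0.97 to -0.53 in B6 (median -0.71), and 13 of 15 had an adjusted p under 0.05. Mobp had -0.89 ± 0.21 in B6 against -0.05 ± 0.20 in D2. With the prefix as a covariate, the B6 median of the 15 genes was -0.11 (-0.47 to 0.01), with 0 at an adjusted or an unadjusted p under 0.05. Averaged over the 15 genes, the 1 control of prefix C7 was at 5.44 log2 CPM, within the 4.94 to 5.63 of the 6 susceptible mice, and the other 5 controls were at 5.66 to 6.37. In B6 mice the prefix and the stress group can therefore hardly be told apart. Without the prefix in the model, for all 15 genes the B6 estimate lay outside the D2 interval. That also held for 407 of the 420 genes called in B6 (96.9%). Those genes were chosen for B6 estimates that were large against their error, so their selection largely set this outcome. Both comparisons also leave out the error of the B6 estimate. The difference between the strains was 0.46 to 0.88 and was tested as an interaction: 14 of 15 had an unadjusted p under 0.05, against 9.32% of all genes, and 0 passed adjustment (adjusted p 0.441 to 0.560). With the prefix as a covariate 0 of 15 had an unadjusted p under 0.05. Over all genes the interaction gave 0 genes (0%) at an adjusted p under 0.05 and 1766 at an unadjusted p under 0.05. A difference between the strains was therefore not established for any single gene, myelin genes included. Of the 420 genes called in B6, 23 (5.48%) had an unadjusted p under 0.05 in D2, against 3.87% of all genes. All 23 went in the same direction as in B6, and Ndufc2 was one of them. In the limma fit without the prefix, Fkbp5 had 0.38 ± 0.11 in B6 (adjusted p 0.0490) against -0.04 ± 0.10 in D2. In the same fit Gabra2, a GABA-A receptor subunit, had 0.65 in B6 (adjusted p 0.0142) against 0.04 ± 0.12 in D2. The striatal list had a median of -0.75 in B6 (-0.12 with the prefix as a covariate) and 0.08 in D2, and its part in the strain difference was not tested.

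**Figure D5:**
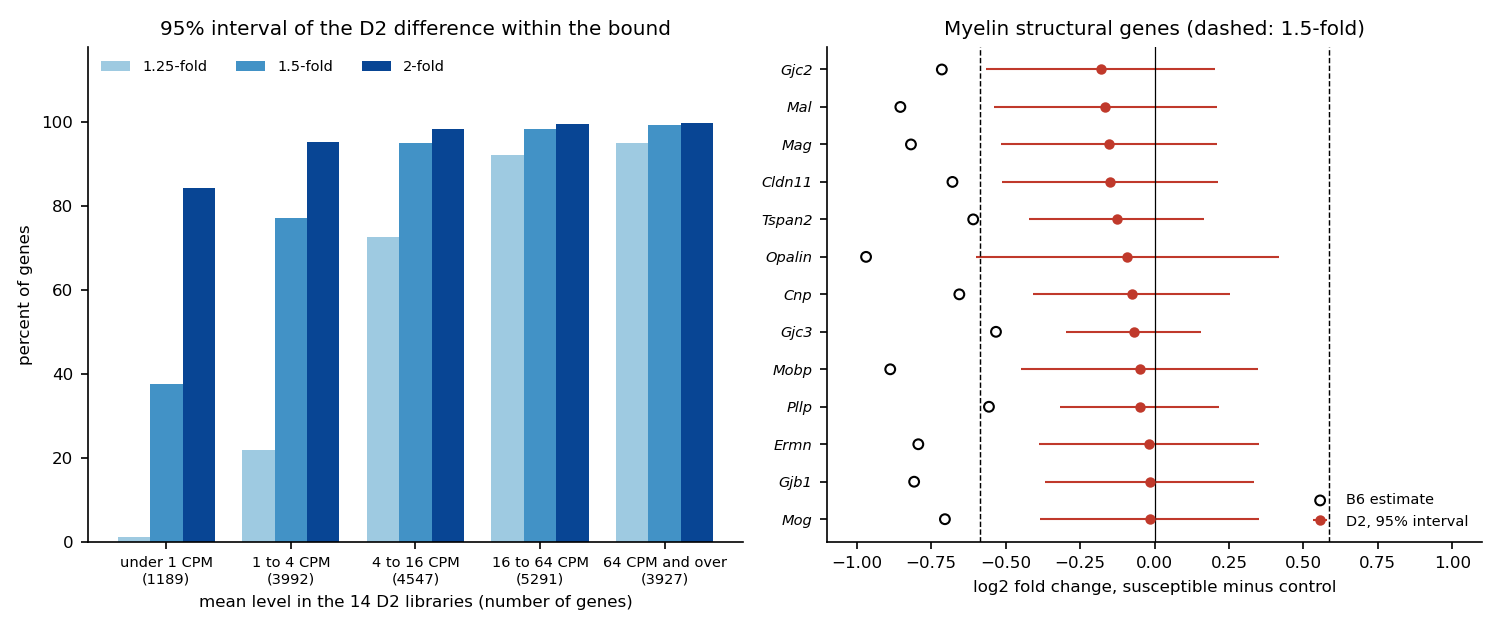
Left, percent of genes whose 95% interval of the D2 difference lies within 25% higher and 20% lower, 1.5-fold or 2-fold (light to dark), by mean level (number of genes in parentheses). Right, log2 fold change of 13 of the 15 myelin structural genes, with D2 estimates and 95% intervals in red. Open circles are B6 estimates without the ID prefix in the model, drawn without their errors. Each B6 estimate lies to the left of the D2 interval, and the D2 interval of Opalin alone crosses the 1.5-fold line.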

How the data were processed

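The authors depleted ribosomal RNA and made ScriptSeq libraries. Reads without PCR duplicates were mapped by STAR to GRCm38, and HTSeq assigned them to exons. The deposited mPFC values are log2 CPM, from which the authors had dropped weakly expressed genes. They had applied voom and then ComBat, with the library preparation set as the batch. The 6 control and 8 susceptible D2 libraries shared 4 of the 5 sets, which were taken from the study's sample list. The adjustment removes set differences before the test, so errors may be somewhat too small.

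All 32 mPFC libraries were fitted with a mean per group in R 4.3.3 with limma 3.58.1 and robust empirical Bayes. They included the 6 resilient B6 mice, and each gene had a single spread shared by all groups. P values were two-sided and adjusted by Benjamini-Hochberg over 18946 genes. Replicates are separate mice, numbered here in the order of their records. Intervals of 95% came from the moderated standard errors. Gene lists were described by counts and medians, with no set test. Members and lists were chosen with earlier results of these data known. In each list the first gene and the highest and lowest log2 fold changes were eligible to be named, together with genes past an unadjusted p of 0.05, the latter chosen after their values were seen. The 22 genes named by rank were the 8 highest and 8 lowest protein-coding genes with a mean of at least 1 log2 CPM, and the 3 highest and 3 lowest of all genes. Genes of 1 chromosome and a few others were counted but are not reported by name here. GENCODE M21 gave symbols for 99.5% of the genes. Columns of the BNST and vHPC were not used here. The fit was tested on simulated data. The 24 alternatives set out at the start comprised other scalings, filters and covariates, only D2 mice with the main ID prefix, and leaving out each of 14 mice, and 4 were added after seeing the data (olfactory bulb, striatal and blood levels as covariates, and leaving out 2 libraries rich in striatal RNA).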

Additional observations from a re-analysis of the deposited data

Results flagged for a closer look

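A value was singled out where 1 mouse stood far from the rest of its group by Dixon's test at 95%. This held in 11 of 130 groups of values tested, and chance alone gives about 1 in 20. In controls, replicate 4 was high for Fbln1 (2.79 log2 CPM, next 2.35) and Tgfbi (2.21, next 1.49), replicate 6 was high for Alas2 (2.29, next 2.00), and replicate 2 was high for Kif18a (2.29, next 2.07). Control replicate 6 was also high in the mean log2 CPM of the striatal list (3.96, next 2.63), the opioid list (4.13, next 4.01) and the cytosolic ribosomal protein list (3.65, next 3.51). Susceptible replicate 7 was high in the striatal list (4.52), the opioid list (4.46, next 4.04), the heat shock list (5.91, next 5.68) and the choroid plexus list (1.06, next 0.42). Control replicate 6 and susceptible replicate 7 were the D2 mice whose ID begins with D5. Leaving out both gave 611 genes at an unadjusted p under 0.05 and 0 after adjustment. Among the genes named by rank, 0 had an interaction of strain and stress past an adjusted p of 0.05.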

How the results depend on the processing

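No gene passed an adjusted p of 0.05 for D2 susceptible against control mice under any of the 28 alternatives, including each left-out mouse, and the smallest adjusted p was 0.142 (Alas2, without susceptible replicate 2). The 22 genes named by rank kept their direction in all 610 values computed, though on log2(CPM + 1) Gm1966 went from 1.33 to 0.14 and 6820402A03Rik from -1.26 to -0.09, and 24 of 43 lists kept the sign of their median. The share of genes within 1.5-fold was 87.3% to 89.6% when each mouse was left out. It was 85.8% with D2 mice of ID prefix D10 alone and 86.7% with the library preparation set as a covariate. With genes of at least 1 log2 CPM it went to 96.3%, because genes of low level and larger error were dropped. On log2(CPM + 1), which compresses differences at low level by construction, it went to 97.2%. The 420 genes called in B6 mice went to 0 once the prefix of the mouse IDs was added to the model. The interaction gave 0 to 2 genes when each mouse was left out. The 2, without susceptible replicate 6, were Gm6419 and Gm15361, both with an adjusted p of 0.0297, against 0.315 and 0.0778 with all mice, and the cause was not tested. Genes at an unadjusted p under 0.05 numbered 526 to 1444, the highest without control replicate 4 (723 higher, 721 lower). The lower genes were 175 without control replicate 3 and 201 with D2 mice of ID prefix D10 alone. Centring libraries on their median gave 276 higher and 478 lower genes (36.6% and 63.4%, against 58.7% and 41.3%). No paired analysis was possible because the replicate numbers only name mice, which gave 1 mPFC library each.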

Other observations

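Outside the rules for naming, 7 further genes had groups that did not overlap in D2 mice, chosen after their values were seen. They were Lyst, Mtrr, Tmem39b, Lgals4, Angptl7 and the noncoding Gm16023 and C030037D09Rik, all higher in susceptible mice by 0.09 to 0.41 on the log2 scale. With Tram2 they make up the 8 genes (0.0422%) of the higher side. C030037D09Rik, a lincRNA, had the smallest unadjusted p of the table with limma, 0.000125, at a log2 fold change of 0.34, and its adjusted p was 0.985. Mtrr, which reactivates methionine synthase, had 0.14, and Lyst, which acts in lysosome size and traffic, had 0.09. Log2 fold changes beyond 1 in either direction were found for 19 genes, of which 13 were under 1 CPM and 2 had an unadjusted p under 0.05.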
